A study of Mus musculus with 4 samples.

Results

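Colon mucosa of mice that carried both an intestinal deletion of Vhl and the Min mutation of Apc (VhlΔIE/Apcmin/+) was compared with that of Vhl-floxed mice (VhlF/F), and this combined difference was set against the sum of the 2 single-genotype differences. The comparison rested on 2 of the 4 arrays of the series, with the VhlΔIE and VhlF/F/Apcmin/+ arrays supplying the sum. Genes were included when a probe set carried exactly 1 gene symbol and any of the 4 arrays read 6 or more on the log2 scale, and the probe set with the highest mean stood for its gene. This left 11871 of 18194 genes.

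All mice were of the 129S6/SvEv strain and 5 weeks of age. Per the labels, VhlF/F mice carried floxed Vhl and wild-type Apc, VhlΔIE mice lacked Vhl in the intestine, VhlF/F/Apcmin/+ mice kept floxed Vhl in an intestinal tumour model, and VhlΔIE/Apcmin/+ mice combined the deletion with that model. The labels call the deletion intestine-specific and do not name the Cre driver, so which cells of the scrapings keep Vhl is not known here. Each genotype was hybridised to 1 array. The design text counts 4, 3, 3 and 5 mice in the order VhlF/F, VhlΔIE, VhlF/F/Apcmin/+ and VhlΔIE/Apcmin/+, without saying how they map to the arrays. Every set of 4 values below is given in that order, as RMA log2 values, where a difference of 1 is a 2-fold difference. With 1 array per genotype no difference has a replicate check, no test could be made, and "higher" and "lower" compare these arrays only.

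VHL recognises hydroxylated hypoxia-inducible factor (HIF) alpha subunits and sends them to the proteasome when oxygen is present, so cells without it keep HIF active and transcribe hypoxia genes. APC belongs to the machinery that keeps beta-catenin low, and the Min allele is a point mutation that leaves 1 functional copy in most cells until the second copy is lost in an adenoma. In the gut, HIF-2 alpha is known for raising iron uptake genes, and Wnt signalling for keeping crypt cells dividing.

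The labels were checked first. Vhl read 8.40, 7.03, 8.17 and 6.56, lowest in the combined array and -1.84 from VhlF/F, although whether the probe set lies in the deleted part is not known here. Cre recombinase, measured by 4 control probe sets, lay between 2.97 and 4.42 in VhlF/F and between 7.41 and 9.91 in the combined array. Apc read 10.17, 9.67, 10.33 and 9.94, which checks nothing because Min is a point mutation. The 15 markers of the epithelial list had a median combined difference of -0.00 and none was 2-fold apart, against 3.94% of all genes. The adhesion molecule Epcam read 13.88, 13.87, 13.91 and 13.87, whereas Cdx2 of the same list was lower in both single genotypes and lay 1.29 above the sum. Xist, transcribed from the inactive X chromosome, read 11.37, 5.58, 11.83 and 6.25, high in both floxed arrays. Eif2s3y, carried on the Y chromosome, read 8.58, 8.78, 7.27 and 8.80. VhlF/F/Apcmin/+ was low, as for the Y-linked Kdm5d (6.61 there, 7.85 to 8.09 elsewhere) and Uty (6.35 there, 7.54 to 7.87 elsewhere). VhlF/F and the combined array were thus alike for the Y-linked transcripts but not for Xist. Both floxed arrays held high Xist together with Y-linked transcripts above the floor, and whether their RNA came from both sexes was not tested. Sex and genotype cannot be told apart.

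In the combined array 268 of 11871 genes (2.26%) were at least 2-fold higher than in VhlF/F and 200 (1.68%) at least 2-fold lower. The median difference over all genes was -0.02, with 47.1% of genes positive and 52.8% negative. Against the same VhlF/F array, VhlΔIE had 270 genes higher (2.27%) and 190 lower (1.6%), 3.87% in all, and VhlF/F/Apcmin/+ had 14 higher (0.118%) and 107 lower (0.901%), 1.02% in all. The sum of these differences passed 2-fold upward for 377 genes (3.18%) and downward for 369 (3.11%). Of the 468 genes (3.94%) apart in the combined array, 309 (66%) lay within 0.5 of the sum of the single-genotype differences, 72 (15.4%) went beyond the sum and 87 (18.6%) fell short of it. Among the genes at least 2-fold higher, 196 of 268 (73.1%) lay near the sum, against 113 of 200 (56.5%) of those lower. The share of all genes within 0.5 of the sum was not counted. Most genes departed from it by between -0.40 and 0.45, so nearness to the sum does not set the 468 genes apart. As 1.02% of genes were 2-fold apart in VhlF/F/Apcmin/+, nearness can also mean that the combined array was like VhlΔIE. All 21 hepatocyte markers among the lower genes fell short of the sum. The VhlF/F value enters the combined difference once and the sum with double weight, so a gene that stands high in VhlF/F alone must fall short. Without the 39 genes whose VhlF/F value was at least 2-fold above the other 3 arrays, a choice made after seeing the data, 48 genes fell short instead of 87. Nearest to the threshold, Col18a1 was just inside it at 1.001 and Hmox1 just outside at 0.996, and among lower genes Sfxn3 lay inside at -1.0025 and Aldh1b1 just outside at -0.9996.

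**Figure D1:**
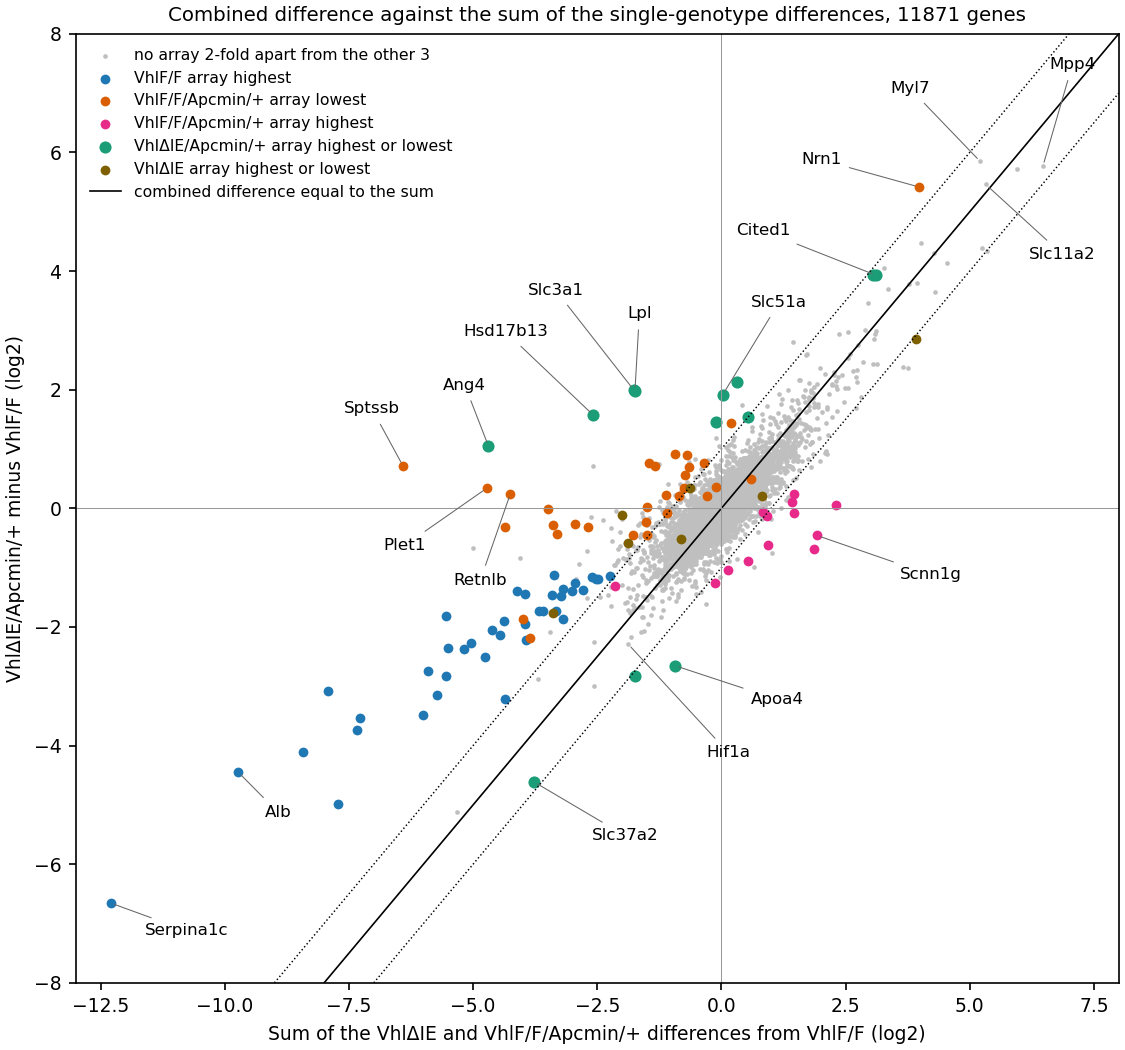
Each point is 1 of 11871 genes, with the sum of the VhlΔIE and VhlF/F/Apcmin/+ differences from VhlF/F on the x axis and the VhlΔIE/Apcmin/+ minus VhlF/F difference on the y axis, both in log2. The solid line marks equality and the dotted lines a 2-fold departure; colours mark genes for which 1 array lay at least 2-fold beyond the other 3, with a gene of 2 such arrays drawn in 1 colour. Hepatocyte genes such as Serpina1c and Alb lie at the lower left above the line, Sptssb and Ang4 lie far to the left of it, and Slc11a2 and Myl7 lie close to it.

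The 12 highest genes were those of hypoxia, metal transport and several genes better known from other organs. Slc11a2, the apical iron importer DMT1, read 6.80, 11.84, 7.09 and 12.26, a difference of 5.46 or 44.0-fold against a sum of 5.32. Its 4 probe sets above the floor were all higher in the combined array. Ndufa4l2, a HIF-induced subunit-like protein of the respiratory chain, read 5.89, 11.65, 6.08 and 11.61, a difference of 5.72 against a sum of 5.95. Both arrays with deleted Vhl were high for these genes and both floxed arrays low, with no overlap.

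Myl7, an atrial myosin light chain, read 7.08, 12.77, 6.59 and 12.92, the highest difference of all at 5.85 or 57.5-fold. Mpp4, a membrane-associated guanylate kinase of the retina, read 3.05, 9.15, 3.43 and 8.82, so that its floxed values lay at background and its difference of 5.77 is understated. Nrn1, the neurite growth factor neuritin, read 6.79, 11.79, 5.76 and 12.20. Its combined difference of 5.42 exceeded the sum of 3.97 by 1.44, with the Apc mutation lower than VhlF/F only when Vhl was intact.

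Ankrd37, a hypoxia-induced ankyrin repeat protein, read 7.34, 11.83, 8.08 and 11.73, and Ak4, a mitochondrial adenylate kinase, read 8.37, 12.37, 7.66 and 12.43. Steap4, a metalloreductase that reduces iron and copper, read 8.27, 12.64, 9.23 and 12.61, which was 0.998 under the sum. Slc30a10, a manganese exporter of the cell surface, read 6.92, 10.82, 7.55 and 11.06. The remaining members were Dnase1l2 with a difference of 4.46, Tmem237, a protein of the ciliary transition zone, with 4.31, and the basic helix-loop-helix gene Tcf24 with 3.93. For these genes the combined array stood beside VhlΔIE, and for Tcf24 it was higher still, at 7.80 against 6.71.

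**Figure D2:**
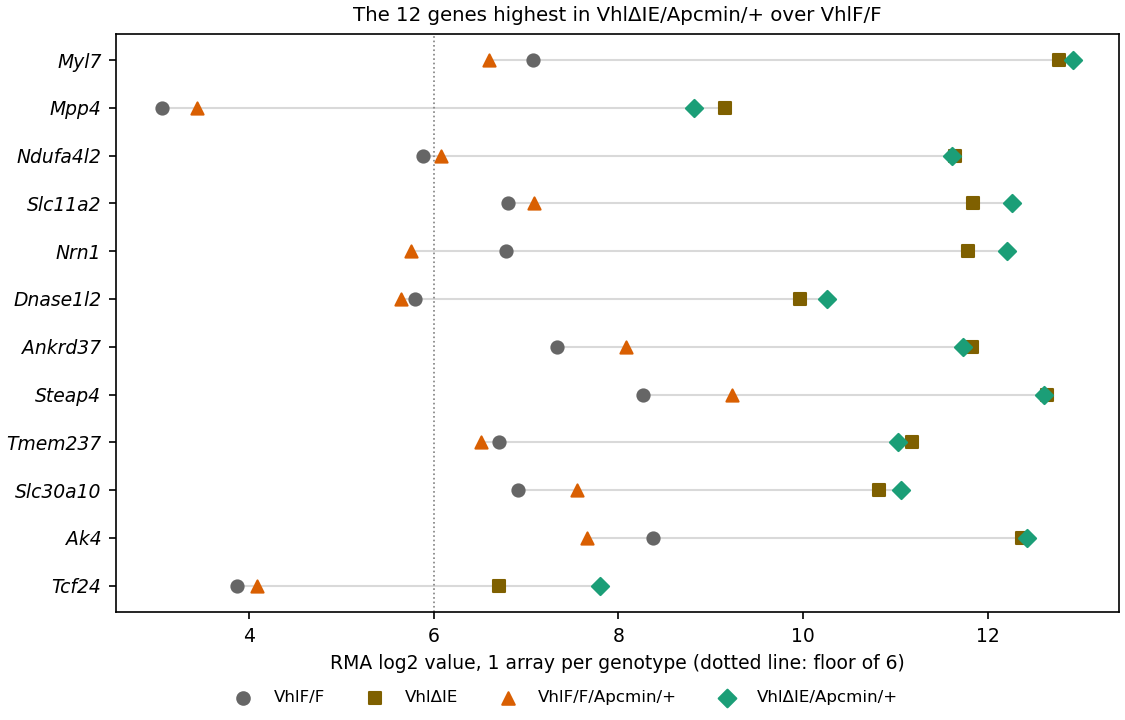
RMA log2 values on the x axis for the 12 genes with the largest VhlΔIE/Apcmin/+ minus VhlF/F difference, 1 symbol per array. For each gene the VhlΔIE and VhlΔIE/Apcmin/+ symbols sit together at the right and both floxed symbols at the left; the dotted line is the floor of 6.

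In the combined array 15 of 38 HIF and hypoxia targets passed 2-fold upward and 0 downward, against 2.26% and 1.68% of all genes. Differences were positive for 32 of them, against 47.1% of all genes. The median was 0.82, against a sum of 0.81 and -0.02 for all genes. Egln3, the oxygen sensor that hydroxylates HIF alpha, read 9.89, 13.56, 10.51 and 13.55. Vegfa, the main angiogenic growth factor, read 8.06, 9.96, 8.01 and 9.92, and its difference of 1.86 matched the sum of 1.85 to within 0.01. Bnip3, a mitophagy receptor, differed by 2.46, Pfkfb3, which drives glycolytic flux, by 2.33, Stc2 by 1.99, P4ha1, a collagen prolyl hydroxylase, by 1.87 and the vasodilator Adm by 1.80. Car12, a membrane carbonic anhydrase, was the member at least 2-fold off the sum: it read 7.91, 7.22, 6.48 and 7.86, lower in each single genotype but not in the combined one.

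The HIF subunits took different courses. Hif1a read 12.36, 10.44, 12.40 and 10.07, a combined difference of -2.29, and its 3 probe sets above the floor were all lower. Epas1, which encodes HIF-2 alpha, read 12.21, 12.03, 12.35 and 12.11, a difference of -0.10. Hif3a, which encodes a subunit that can restrain the others, read 8.51, 10.10, 8.49 and 10.19, a difference of 1.68. None of the 14 HIF pathway components above the floor lay 2-fold off the sum, against 1.57% of all genes, so this count does not set them apart.

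Upstream sequences are shown for 4 hypoxia genes of the combined difference, of which Ankrd37, Ak4 and Egln3 hold a core motif in the printed window and Vegfa does not, with Slc51a, one of the 10 genes highest in the combined array, beside them. They are the 250 bases before the gene start in RefSeq, build GRCm38.p6, 5′ to 3′ on the gene's strand, with matches to ACGTG or GCGTG, the core of hypoxia response elements, in capitals on either strand. The sites were Ankrd37 at chr8:45999851-46000100, minus strand, Ak4 at chr4:101419039-101419288, plus strand, Egln3 at chr12:54203875-54204124, minus strand, Vegfa at chr17:46032378-46032627, minus strand and Slc51a at chr16:32487880-32488129, minus strand.
Ankrd37: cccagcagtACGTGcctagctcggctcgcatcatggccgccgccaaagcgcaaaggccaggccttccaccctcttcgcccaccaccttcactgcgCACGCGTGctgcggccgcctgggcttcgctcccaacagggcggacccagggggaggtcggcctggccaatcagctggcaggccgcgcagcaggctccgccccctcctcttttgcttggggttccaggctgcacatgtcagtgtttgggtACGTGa
Ak4: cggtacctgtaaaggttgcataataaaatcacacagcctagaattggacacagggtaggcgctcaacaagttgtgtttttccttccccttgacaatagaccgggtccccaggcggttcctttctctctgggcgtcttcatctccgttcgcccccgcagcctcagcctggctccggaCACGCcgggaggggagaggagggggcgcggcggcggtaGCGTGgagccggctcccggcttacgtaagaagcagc
Egln3: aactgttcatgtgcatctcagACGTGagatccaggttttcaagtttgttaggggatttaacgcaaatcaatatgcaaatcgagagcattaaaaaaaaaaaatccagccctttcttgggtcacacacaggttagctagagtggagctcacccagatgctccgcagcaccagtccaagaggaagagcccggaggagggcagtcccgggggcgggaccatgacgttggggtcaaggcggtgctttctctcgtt
Vegfa: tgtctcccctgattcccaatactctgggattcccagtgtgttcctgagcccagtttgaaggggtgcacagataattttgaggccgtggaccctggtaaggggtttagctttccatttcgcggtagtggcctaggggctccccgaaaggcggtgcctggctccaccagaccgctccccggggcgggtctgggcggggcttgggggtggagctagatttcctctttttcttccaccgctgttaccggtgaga
Slc51a: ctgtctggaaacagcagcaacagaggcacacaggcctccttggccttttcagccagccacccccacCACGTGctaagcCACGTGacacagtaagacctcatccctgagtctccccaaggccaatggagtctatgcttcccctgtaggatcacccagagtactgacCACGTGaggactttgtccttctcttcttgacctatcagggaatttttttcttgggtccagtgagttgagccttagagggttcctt

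Ankrd37 held the core at 3 separate places, Ak4 at 2 and Egln3 at 1. The first of 2 windows listed for Vegfa, printed here, held none, and the other held 2. In Slc51a each of 3 matches lay inside CACGTG, the E-box that clock and Myc family factors recognise and that contains ACGTG on both strands. For Ak4, with 4 starts listed, the first is printed. The core was found in 38.6% of the first windows of all listed genes and in 56.5% of those of the genes compared here. Among genes at least 2-fold higher in the combined array, 99 of 197 with a window held it (50.3%), and among those lower 65 of 164 (39.6%). Both shares were below that of the genes compared. Of the 12 highest genes 8 had a window listed, and 4 of them held the core in the first window or 5 in any window. Steap4, Mpp4 and Dnase1l2 held none.

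Of 20 glycolysis and lactate genes 6 were at least 2-fold higher in the combined array and 0 lower, against 2.26% and 1.68% of all genes, and 16 differences were positive, against 47.1%. Slc16a3, the lactate exporter MCT4, read 5.19, 7.92, 5.34 and 8.19. Pfkl and Pfkp, subunits of phosphofructokinase, differed by 1.37 and 1.29, and Ldha by 0.63. The list median was 0.57 against a sum of 0.70. Of 32 oxidative phosphorylation genes none was 2-fold apart, against 3.94% of all genes, and their median was -0.11.

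The iron list held 5 of 23 members at least 2-fold higher and 2 lower, against 2.26% and 1.68% of all genes, with a median of -0.13. Beside Slc11a2 and Steap4, the higher members were Slc39a14, a transporter of zinc and iron, at 1.53, Ncoa4, the cargo receptor that delivers ferritin to lysosomes, at 1.42, and Cybrd1, the duodenal ferrireductase, at 1.34. Slc40a1, the basolateral iron exporter ferroportin, differed by 0.88, and Tfrc, the transferrin receptor, by -0.20. Slc46a1, the proton-coupled folate transporter, read 8.68, 7.84, 9.49 and 7.52 and lay 1.13 below the sum. Hamp, the liver hormone hepcidin, was the other lower member, at 6.29 in VhlF/F and 3.78 to 3.95 elsewhere.

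Amino acid transport and serine synthesis genes had 5 of 21 members at least 2-fold higher and 0 lower, against 2.26% and 1.68% of all genes. Slc7a8, a neutral amino acid exchanger, read 5.95, 8.74, 6.24 and 8.89, and Shmt2, the mitochondrial serine hydroxymethyltransferase, read 7.90, 10.36, 7.69 and 10.20. Slc3a1 and Slc7a9, the heavy and light chains of the cystine and dibasic amino acid transporter, took different courses. Slc7a9 read 7.12, 9.42, 7.47 and 9.43, near the sum, whereas Slc3a1 read 7.46, 8.28, 4.87 and 9.45, which was 3.76 above it.

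Cell cycle genes were higher in the combined array without passing 2-fold in most cases. All 32 members above the floor had positive differences, against 47.1% of all genes, with a median of 0.46 against 0.67 in VhlΔIE, -0.23 in VhlF/F/Apcmin/+ and 0.38 for the sum. Bub1, a mitotic checkpoint kinase, read 7.42, 9.48, 6.88 and 9.19 and was the member past 2-fold. Mki67, the Ki-67 antigen of cycling cells, differed by 0.28.

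Wnt targets had a median difference of 0.03 over 17 members, with 10 positive and 7 negative, against 47.1% and 52.8% of all genes. Lgr5, the R-spondin receptor of crypt stem cells, read 7.51, 10.05, 7.71 and 10.25, a difference of 2.75 against a sum of 2.74. Axin2, a feedback inhibitor of Wnt signalling, differed by 0.60. Sox9, a transcription factor of crypt cells, read 8.99, 7.77, 9.15 and 7.97, and Rgmb, a BMP co-receptor used as a stem cell marker, differed by -1.15. Cdx2, the intestinal identity factor, and Prom1, a membrane protein of crypt cells, were lower in each single genotype but not in the combined one. Cdx2 read 10.46, 9.84, 9.82 and 10.49, which is 1.29 above the sum, and Prom1 read 12.10, 11.46, 11.51 and 12.22, which is 1.36 above it.

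The 12 lowest genes of the combined array were mostly transcripts of the liver, but Xist, at -5.12, was also among them, lower than all but Serpina1c. Serpina1c, an alpha-1 antitrypsin gene of a near-identical family, read 10.45, 4.30, 4.30 and 3.79, a difference of -6.65. Alb, the plasma protein albumin, read 11.53, 7.25, 6.10 and 7.08, and Cyp3a11, a drug-metabolising enzyme, read 9.65, 6.03, 5.55 and 4.67. Among 26 hepatocyte markers 21 passed 2-fold downward in the combined array, against 1.68% of all genes, with a median of -2.25. Each single genotype gave nearly the same median, -2.25 in VhlΔIE and -2.61 in VhlF/F/Apcmin/+, so the sum was -4.70 and 23 of the 26 lay at least 2-fold above it. Their median level was 7.53 in VhlF/F and 5.24 to 5.46 in the other arrays: VhlF/F was the array that stood apart. The medians of 5.24 to 5.46 lie under the floor of 6, so the size of these differences and departures is uncertain. With values under 6 raised to 6, Arg1 lay 0.47 and Ugt2b5 0.13 above the sum, whereas Cyp2e1 stayed 3.09 above it. Without hepatocyte markers 179 genes were at least 2-fold lower and 128 lay above the sum. A different number of cells of a type and a different amount of RNA per cell cannot be told apart in these tissue samples. The source of the liver transcripts in the VhlF/F array was not tested.

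Among lower genes outside the hepatocyte list, Slc37a2, a sugar phosphate transporter, read 11.33, 8.29, 10.59 and 6.72, a difference of -4.61 against a sum of -3.78. Slc5a8, which takes up short-chain fatty acids and lactate, read 11.83, 10.08, 12.01 and 9.76. Xenobiotic and retinoid genes had 9 of 25 members at least 2-fold lower and 2 higher, against 1.68% and 2.26% of all genes, with a median of -0.50 against a sum of -0.51. Abcb1a, the efflux pump P-glycoprotein, read 12.22, 10.23, 12.43 and 10.51, Sult1a1, a sulfotransferase, differed by -1.67, and the cytochrome Cyp2f2 by -2.16. Cyp2s1 went the other way, from 10.13 in VhlF/F to 12.07 in the combined array. Cyp3a11 and Ugt2b5 of this list are also hepatocyte markers.

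The combined difference departed from the sum by at least 2-fold for 186 genes, 151 above it (1.27% of all genes) and 35 below it (0.295%). Over all genes the standard deviation of this departure was 0.36. Such a departure weighs all 4 arrays alike, so the genes were counted by which array lay at least 2-fold beyond the other 3. Of the 151 genes above the sum, VhlF/F was highest for 39, VhlF/F/Apcmin/+ was lowest for 32, and the combined array was highest for 8. VhlΔIE was lowest for 3 (0.059% of all genes had VhlΔIE that far below), and for 73 no array stood that far apart. Ang4, Cyp2e1, Hsd17b13 and Slc3a1 had 2 arrays apart and are counted under both. Of the 35 below the sum, VhlF/F/Apcmin/+ was highest for 11, the combined array lowest for 2 and VhlΔIE highest for 1. VhlΔIE was lowest for 1, Hoxd10, which is also among the 11, and for 21 no array stood apart.

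The farthest departure in the values as deposited was that of Sptssb, for which VhlF/F/Apcmin/+ was the low array. Sptssb, a small subunit of serine palmitoyltransferase, read 10.29, 10.17, 3.98 and 11.002, so the combined difference was 0.72, the sum -6.41 and the departure 7.13. Its second probe set lay 5.21 above the sum. Both probe sets were under the floor of 6 in VhlF/F/Apcmin/+, so the size of the departure is uncertain. So is its rank over Ang4, which lay 5.74 above the sum with no value under the floor. Plet1, a surface protein of epithelial progenitors, read 10.04, 9.58, 5.78 and 10.38, and Retnlb, a goblet cell protein with antimicrobial activity, read 10.12, 9.64, 6.35 and 10.36. For the probe sets used, the combined array lay within 0.72 of VhlF/F in these genes. The other probe sets of Plet1 differ: one read 7.59, 8.001, 4.72 and 8.71, 1.12 higher in the combined array than in VhlF/F, and one read 6.25, 6.41, 6.22 and 6.39, with no departure from the sum past 0.003. In the opposite direction Scnn1g, the gamma subunit of the epithelial sodium channel, read 6.97, 6.53, 9.33 and 6.51, and S100g, the calcium carrier calbindin-D9k, read 7.28, 6.88, 9.54 and 6.58. Hoxd10, Hoxd11 and Hoxd13, which pattern the hindgut along its length, were also highest in VhlF/F/Apcmin/+ and lay 1.22, 1.31 and 1.55 below the sum. The 11 members of the Hox list had a median of -0.04 from the sum, with Hoxd8 0.04 and Hoxa9 0.46 above it. Glycam1 lay 2.25 below the sum, Abcg5, a sterol exporter subunit, 1.57 below it, and Wnt8b 1.42 below it. Glycam1 read 5.06, 5.36, 7.07 and 5.12, under the floor of 6 except in VhlF/F/Apcmin/+. Hoxd10, Hoxd11, Abcg5 and Wnt8b were also under the floor in 1 or more arrays, so these sizes are uncertain. Position along the colon was not tested.

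In the combined array 10 genes (0.0842% of all genes) lay at least 2-fold above all other arrays and 3 (0.0253%) at least 2-fold below them. The VhlF/F array had 39 and 0 such genes (0.329% and 0%), and VhlF/F/Apcmin/+ had 13 and 35 (0.11% and 0.295%). VhlΔIE had 3 and 7 (0.0253% and 0.059%), so few genes stood apart in either array with deleted Vhl.

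Lpl, the lipoprotein lipase that frees fatty acids from circulating triglycerides, stood farthest out among the 10. It read 10.31, 9.88, 8.999 and 12.29, so both single genotypes were below VhlF/F and the combined array 1.98 above it. Its second probe set read 6.83, 6.51, 5.81 and 9.46, the same order. Hsd17b13, an enzyme of lipid droplets, read 5.66, 4.89, 3.85 and 7.24 and lay 4.16 above the sum, or 1.24 with the first 3 values, which are under the floor, raised to 6. Of 9 adipocyte markers above the floor, Lpl was the one at least 2-fold higher, against 2.26% of all genes. However, 3 of the 9 lay at least 2-fold above the sum, against 1.27% of all genes: Lpl, Car3 by 1.19 and Cidec by 1.06. Cidec was under the floor in VhlF/F/Apcmin/+, at 5.13. The fat cell hormone Adipoq read 7.64, 7.55, 6.28 and 7.17, with VhlF/F highest. The list median was -0.13 in the combined array, -0.05 in VhlΔIE and -0.95 in VhlF/F/Apcmin/+, and 0.35 above the sum.

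Slc51a, the alpha subunit of the basolateral bile acid exporter whose upstream sequence is printed above, read 6.13, 6.55, 5.73 and 8.04, 1.89 above a sum of 0.03. Slc51b, which encodes its partner subunit, read 8.35, 8.57, 8.04 and 8.67, a difference of 0.31. Slc3a1 and the antimicrobial ribonuclease Ang4 were also highest in the combined array. Ang4 read 10.61, 9.17, 7.35 and 11.66, 5.74 above the sum, and its second probe set lay 4.31 above it; angiogenin genes resemble each other, so the probes may not tell them apart.

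Cited1, a transcriptional co-regulator, read 3.52, 5.97, 4.19 and 7.45, and for Cited1 as for Tcf24 the values were ordered VhlF/F, VhlF/F/Apcmin/+, VhlΔIE and combined, from low to high. Both lay near or under the floor in the floxed arrays. Vsig2, an immunoglobulin-domain membrane protein, read 7.60, 8.70, 6.82 and 9.73. A pair of entries for antibody light chain variable segments, Igkv4-68 and Igkv6-20, completed the 10, at 6.35 and 7.02 in the combined array. Both lay under the floor in VhlF/F, at 4.91 and 5.47. The light chain entry Igk went the other way and read 9.49, 9.60, 8.86 and 8.05. Its 3 probe sets above the floor ranged from -1.44 to 0.21, and the 12 B and plasma cell markers had a median of 0.02. Vsig2 and Igkv6-20 fall outside the rule for named genes and were chosen after their values were seen.

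Below all other arrays lay Slc37a2, Apoa4 and the clone entry 2310079G19Rik. Apoa4, an apolipoprotein of small intestine and liver, read 8.25, 8.50, 7.07 and 5.60, which is 1.72 below the sum, and its second probe set lay 1.37 below it. The clone entry, also named after its values were seen, read 8.87, 7.62, 8.36 and 6.05. In both Slc37a2 and the clone entry each single genotype was lower than VhlF/F and the combined array lower again.

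**Figure D3:**
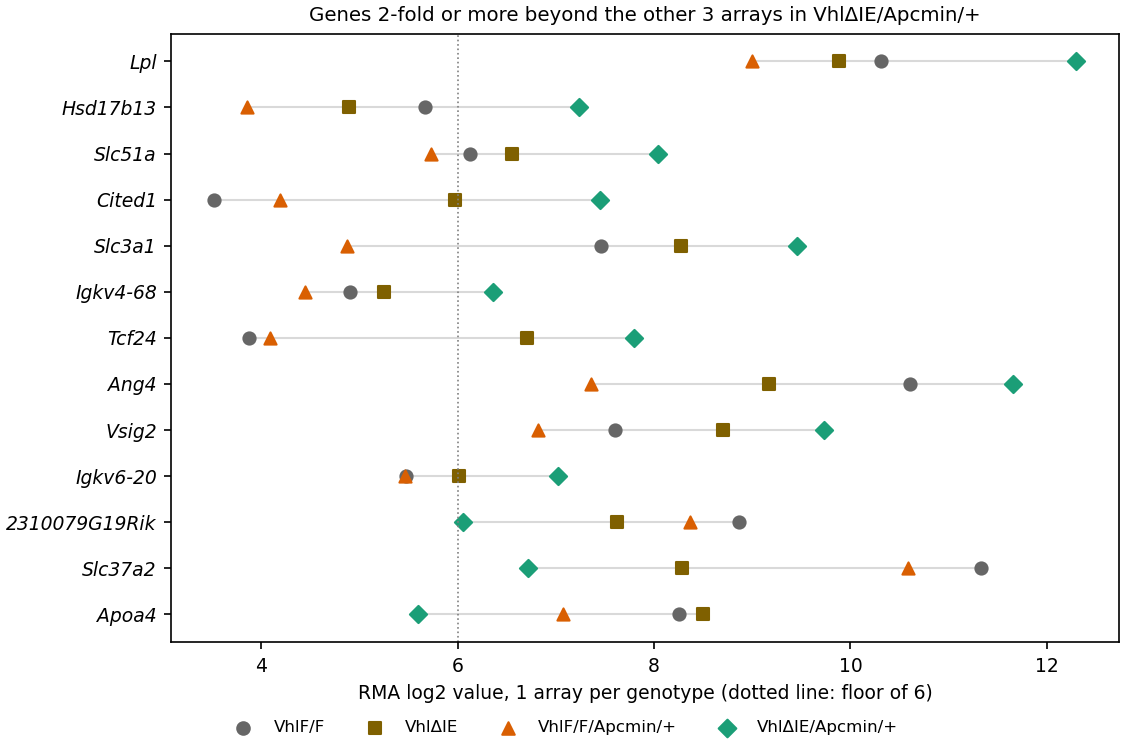
RMA log2 values on the x axis for the 10 genes at least 2-fold above and the 3 genes at least 2-fold below all other arrays in VhlΔIE/Apcmin/+, 1 symbol per array. The VhlΔIE/Apcmin/+ diamond is at the right end for the upper 10 genes, led by Lpl at 12.29, and at the left end for 2310079G19Rik, Slc37a2 and Apoa4.

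Markers of other cell types also differed between the combined and VhlF/F arrays. All 19 endothelial markers had positive differences and 8 were at least 2-fold higher, against 47.1% and 2.26% of all genes, with a median of 0.95 against 1.01 in VhlΔIE and a sum of 1.25. Emcn, a sialomucin of capillaries and veins, read 6.04, 8.29, 6.10 and 8.10, and Kdr, the main VEGF receptor, read 7.49, 8.66, 7.49 and 8.76. Lyve1, a marker of lymphatic vessels, read 8.41, 9.37, 8.78 and 8.59 and lay 1.15 below the sum. Macrophage and dendritic markers had a median of 0.79 and 3 of 18 at least 2-fold higher (2.26% of all genes), and their level in the combined array, with a median of 8.63, stood beside the 8.59 of VhlΔIE and over the 7.79 of VhlF/F. Of 5 MHC class II genes above the floor, all 5 differences were positive, against 47.1% of all genes, with a median of 0.66. At least 2-fold higher was 1 of them, H2-Ab1, against 2.26% of all genes. Of the 4 mast cell markers above the floor, the similar proteases Mcpt1 and Mcpt2 differed by 2.16 and 2.10, Cma1 by 1.48 and Kit by -0.62. In VhlF/F and VhlF/F/Apcmin/+ Mcpt1 read 4.82 and 4.19 and Mcpt2 read 4.89 and 4.74. These values, and the 5.88 of Cma1 in VhlF/F, lay under the floor, so the sizes are uncertain. The part of these cell types in the differences of other genes was not tested.

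Inflammatory mediators had 4 of 15 members at least 2-fold higher and 0 lower, against 2.26% and 1.68% of all genes. Ptges, the prostaglandin E synthase, read 6.13, 8.57, 6.77 and 8.98, Ptgs2, the inducible cyclooxygenase, read 6.78, 8.54, 6.27 and 8.04, and the cytokine Mif differed by 1.73. Both enzymes lay within 0.5 of their sums.

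Of 10 neuron and glia markers 9 were negative against VhlF/F and 3 at least 2-fold lower, against 52.8% and 1.68% of all genes. Of the 10, 9 read lowest in the combined array of all 4, but the share of all genes lowest there was not counted. The list median was -0.72, against -0.18 in VhlΔIE, -0.25 in VhlF/F/Apcmin/+ and -0.41 for the sum. Vip, a neuropeptide of the submucosal plexus, read 10.16, 10.02, 9.94 and 9.13. Stmn2, a microtubule regulator of neurons, read 7.399, 6.85, 7.29 and 6.19, and Snap25, a synaptic vesicle fusion protein, read 7.38, 7.06, 6.78 and 6.27. The glial factor Sox10 differed by 0.12. Smooth muscle markers, which mark the muscle beneath the mucosa, had 15 of 16 negative and 2 at least 2-fold lower, against 52.8% and 1.68% of all genes, and a median of -0.66 against -0.62 in VhlΔIE. How deep the scraping reached was not tested.

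**Figure D4:**
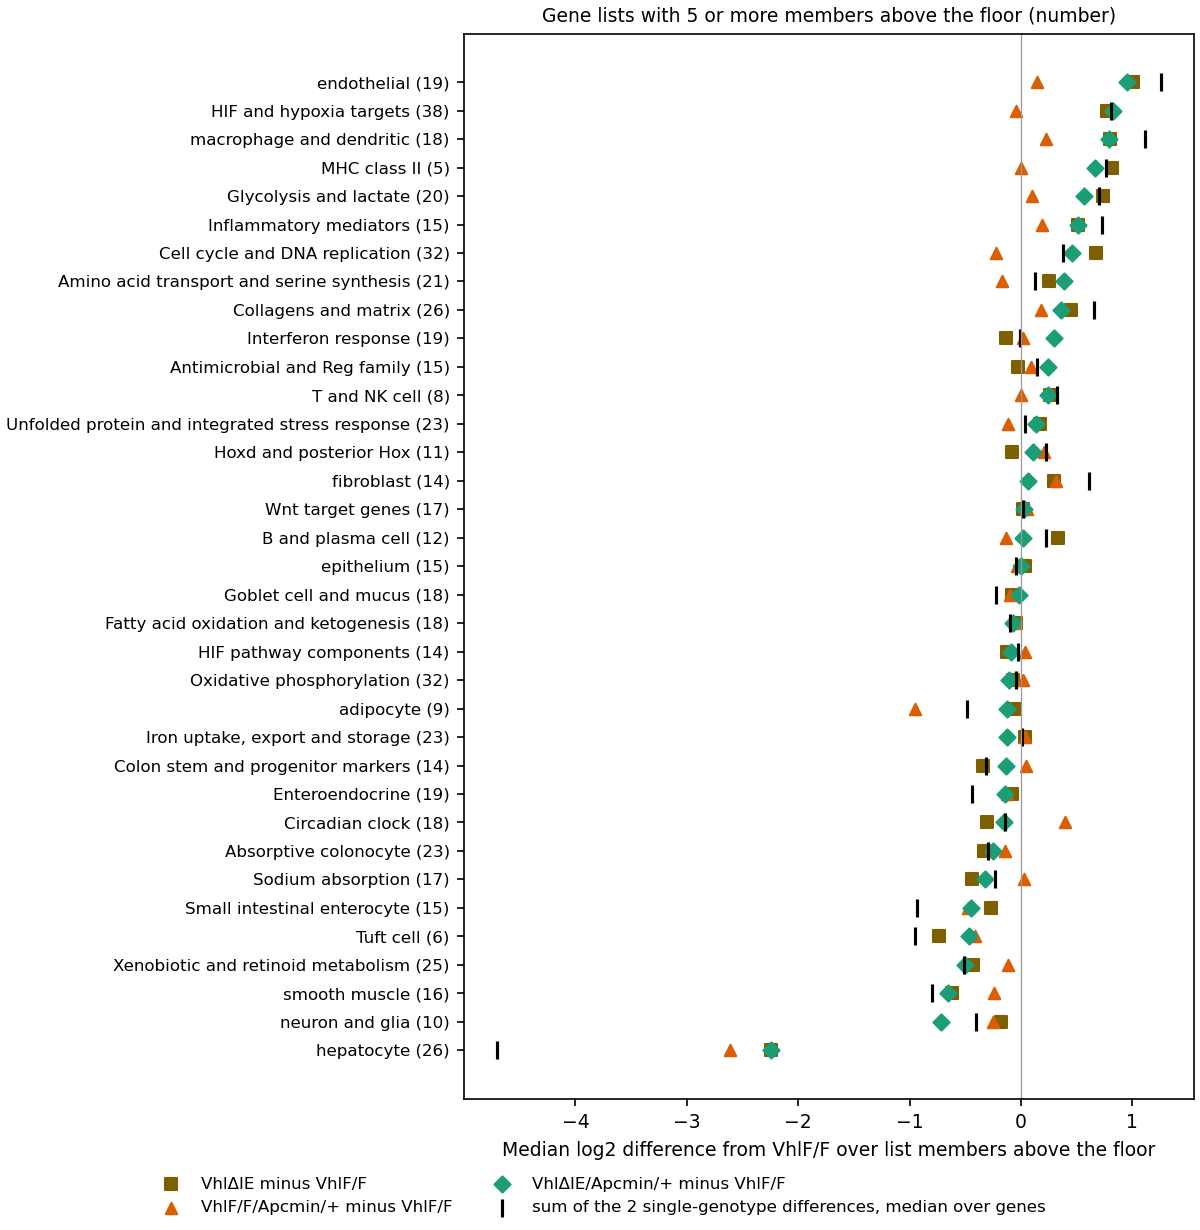
Median log2 difference from VhlF/F on the x axis over the members above the floor of each gene list with 5 or more such members, with their number in brackets. Squares are VhlΔIE, triangles VhlF/F/Apcmin/+, diamonds VhlΔIE/Apcmin/+ and bars the median of the per-gene sums. Diamonds lie beside the squares for endothelial and HIF target lists, while the neuron and glia diamond at -0.72 lies to the left of the other 3 symbols and the hepatocyte bar at -4.70 far to the left of its diamond.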

How the data were processed

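Expression in colon mucosal scrapings was measured on 1 Affymetrix mouse array per genotype, with 45101 probe sets. Per the submitters' processing notes, which name affy and RMA, the authors deposited log2 values; tool versions were not given in the sources used here. RMA corrects background, equalises the distributions (array medians 6.05 to 6.07) and summarises probes. Global shifts would be hidden, and differences near background are understated. The number of arrays limits the precision.

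GEO's platform annotation, which can be old, gave 1 symbol for 34958 probe sets and several for 932, and did not list 9211. Entrez identifiers of 34754 were found in RefSeq for GRCm38.p6. Differences were subtracted log2 values, with no test, and counted past 1. The lists (38) and members were chosen with earlier results of these data known. Named genes were the 12 highest and lowest by combined difference, the 8 farthest above and below the sum, the 8 farthest above and below the other arrays, up to 4 per list with any member 2-fold off the sum, and Vhl, Apc, Hif1a, Epas1, Alb, Xist and Eif2s3y; clone entries were passed over, and Ddx3y of the rule was not among the genes compared. Outside the rule, and chosen after their values were seen, were the threshold neighbours, 2310079G19Rik, Abcb1a, Adipoq, Adm, Bnip3, Cybrd1, Epcam, Guca2b, Igkv6-20, Kdm5d, Ldha, Mki67, Muc2, Ncoa4, P4ha1, Slc40a1, Slc51b, Sox10, Stc2, Sult1a1, Tfrc, Uty, Vegfa and Vsig2. Alternatives varied floor, probe sets, normalization, threshold and the scale of the sum. The counting was tested on simulated data. Cyclic loess came from limma 3.58.1 in R 4.3.3, and the rest from pandas 2.3.3 and numpy 2.4.6 in Python 3.11.15, with plots by matplotlib 3.10.9.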

Additional observations from a re-analysis of the deposited data

Results flagged for a closer look

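Several named genes differed in opposite directions by at least 2-fold in the 2 backgrounds. Each value rests on 1 array, and none of these differences between backgrounds was tested. Only named genes were searched, many of them named for lying off the sum, so the counts below follow in part from that choice. The share of all genes with such opposite differences was not counted. Some of the values lie under the floor of 6, where their order is uncertain. With such values raised to 6, the opposite 2-fold differences held for 5 of 7 genes for the Apc difference and 6 of 7 for the Vhl difference. The Apc difference was negative with floxed Vhl and positive with deleted Vhl for 7 named genes. Ang4 went from -3.25 to 2.49, 5.74 above the sum. B3gnt6, a glycosyltransferase of mucin core structures, went from -2.81 to 1.51, 4.32 above the sum. Cyp2c65 went from -2.72 to 1.32 (4.04 above), Slc3a1 from -2.59 to 1.18 (3.76 above) and Lpl from -1.31 to 2.41 (3.72 above). The change of direction was lost on raising low values for the other two. Hsd17b13 went from -1.81 to 2.35 (4.16 above the sum) as deposited and from 0 to 1.24 when raised. Ugt2b5, on the hepatocyte list, went from -2.58 to 1.16 (3.74 above) as deposited, with both values behind 1.16 under the floor, and lay 0.13 above the sum when raised.

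The Vhl difference was negative without and positive with the Apc mutation for 7 named genes. Ang4 went from -1.44 to 4.30, B3gnt6 from -2.19 to 2.13 and Cyp2c65 from -1.64 to 2.396. Arg1, a urea cycle enzyme on the hepatocyte list, went from -1.82 to 1.39, 3.21 above the sum, but 3 of its 4 values lie under the floor and it was 0.47 above the sum when they were raised. Cyp2e1, of the hepatocyte list, went from -1.80 to 1.35 (3.16 above). Alpi, the intestinal alkaline phosphatase, went from -1.0035 to 1.49 (2.49 above), and Tmigd1, a protein of mature colonocytes, from -1.19 to 1.07 (2.26 above).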

How the results depend on the processing

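No paired analysis was possible because each genotype has 1 array and no replicate number, and no array could be left out. Of the recomputed counts 74 stayed within 1.5 times the reported one and 18 did not. Of the gene values recomputed 142 moved by 0.25 or more on the log2 scale and 2222 did not, 85 of the 142 when values under 6 were raised to 6 and 48 with the mean over probe sets; of the list medians 16 moved and 428 did not. No named gene or list past its threshold changed sign. With a 1.5-fold threshold, 754 genes were higher and 699 lower in the combined array, 367 lay above and 214 below the sum, 1132, 150 and 171 combined differences lay near, beyond and short of the sum, and 33 and 23 genes lay above and below the other 3 arrays. With a tolerance of 0.25, 201 lay near the sum, 126 beyond and 141 short. With a tolerance of 1, 21 lay beyond and 49 short. On the linear scale 229 genes lay above the sum, which was held at the lowest deposited value for 79 genes. The mean over probe sets put 21 genes below the sum. Raising values under 6 to 6 left 57 short of the sum, and leaving out genes with VhlF/F highest, chosen after seeing the data, left 48. Genes under the floor in some arrays, such as Cited1 with a difference of 1.45 when low values were raised, have uncertain size.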

Other observations

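Other lists showed single members apart in the combined array. Cck, the hormone cholecystokinin, read 4.67, 8.10, 4.19 and 8.12 while the 19 enteroendocrine markers had a median of -0.14; Tac1, which encodes substance P and is also made by enteric neurons, differed by -1.16. Among goblet cell genes Muc1, a membrane mucin, read 8.18, 10.43, 8.36 and 10.43, whereas the secreted mucin Muc2 read 14.19, 14.04, 13.90 and 14.16. Guca2b, the peptide uroguanylin, read 7.89, 8.49, 7.55 and 9.10, highest in the combined array.

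Interferon response genes had a median of 0.30 in the combined array against -0.14 in VhlΔIE and 0.02 in VhlF/F/Apcmin/+, with 13 of 19 positive and 1 at least 2-fold higher, against 47.1% and 2.26% of all genes. Iigp1, an interferon-induced GTPase, read 7.28, 7.51, 6.39 and 8.06 and lay 1.44 above the sum. The C-type lectins Reg3b and Reg3g, which resemble each other and bind bacteria, read 9.87, 9.81, 6.06 and 7.67 and 7.53, 7.37, 5.25 and 6.04, lower in both Apc mutant arrays. The matrix metalloproteinases Mmp13 and Mmp10 differed by 2.38 and 1.70 and lay 1.28 and 1.01 below the sum. Mmp13 read 4.24, 7.36, 4.77 and 6.62, and Mmp10 read 5.81, 8.07, 6.265 and 7.51. Mmp13 in both floxed arrays and Mmp10 in VhlF/F lay under the floor of 6, so these sizes are uncertain. Clock genes had a median of -0.15, and the clock output gene Dbp read 9.37, 5.86, 10.74 and 8.05; time of day was not tested.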
